A study of Mus musculus with 6 samples.

Results

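The receptors through which growth factors control blood cell production were followed across 6 RNA sequencing libraries labelled as bone marrow mesenchymal stromal cells. They were chosen by gene symbol: Csf1r, Csf3r, Csf2ra, Il3ra, Csf2rb, Csf2rb2, Flt3, Kit and Epor. All 9 were found, and all 9 were among the 14756 genes that passed the filter on low counts with 6 libraries and the 16190 that passed it with 5. The 3 libraries labelled Hes1 KO came from mice with a floxed Hes1 allele crossed to Prx1Cre mice, and 3 libraries were labelled WT, all on a C57BL/6 background. Per the labels' protocols the Prx1 promoter drives Cre in early limb bud mesenchyme and part of the craniofacial mesenchyme, so the deletion is directed to stromal cells and not to blood cells. The protocols name heterozygous floxed mice for every sample, including WT, and how many alleles were deleted is not stated. The labels give neither age nor sex.

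Csf1r, Flt3 and Kit encode receptor tyrosine kinases. Csf1r binds colony-stimulating factor 1 and maintains monocytes and macrophages, Flt3 acts in lymphoid, dendritic and multipotent progenitors, and Kit, the receptor for stem cell factor, acts in stem cells, progenitors and mast cells. The other genes encode cytokine receptors that have no kinase of their own and signal through Jak kinases and Stat proteins. Csf3r, the granulocyte colony-stimulating factor receptor, and Epor, the erythropoietin receptor, work as pairs of identical chains. Csf2ra and Il3ra encode ligand-binding alpha chains for GM-CSF and interleukin-3. They pair with the common beta chain Csf2rb, and mice have an additional beta chain, Csf2rb2, that serves interleukin-3.

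Promoter sequences of 4 receptors are shown because they are the entries, beside that of Kit, that hold the core letters searched for, of factors known for blood lineages. They cover 250 bases before to 50 after the gene start, from the RefSeq annotation of GRCm38.p6, while the authors used GRCm39. Capitals mark GAGGAA on either strand, the core of sites for the myeloid and lymphoid factor PU.1. They also mark AGATAA on either strand, 1 form of the core of sites for GATA factors. Other forms of that core, such as TGATAA, were not searched for. The strand and place are chr19:61228369-61228668 (minus) for Csf2ra, chr15:78305672-78305971 (minus) for Csf2rb2, chr4:126024409-126024708 (plus) for Csf3r and chr9:21963527-21963826 (minus) for Epor.
Csf2ra: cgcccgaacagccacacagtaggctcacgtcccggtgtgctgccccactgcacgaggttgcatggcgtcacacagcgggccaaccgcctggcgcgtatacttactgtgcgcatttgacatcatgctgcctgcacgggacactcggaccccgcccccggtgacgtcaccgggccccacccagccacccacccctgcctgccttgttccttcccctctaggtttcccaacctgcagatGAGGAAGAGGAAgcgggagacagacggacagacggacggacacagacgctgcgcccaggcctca
Csf2rb2: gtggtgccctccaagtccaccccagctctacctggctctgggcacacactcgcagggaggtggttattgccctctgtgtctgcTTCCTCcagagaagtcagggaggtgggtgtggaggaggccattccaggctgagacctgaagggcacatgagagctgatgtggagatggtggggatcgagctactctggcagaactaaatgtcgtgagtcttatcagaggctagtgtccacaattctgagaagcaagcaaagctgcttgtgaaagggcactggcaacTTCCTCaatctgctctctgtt
Csf3r: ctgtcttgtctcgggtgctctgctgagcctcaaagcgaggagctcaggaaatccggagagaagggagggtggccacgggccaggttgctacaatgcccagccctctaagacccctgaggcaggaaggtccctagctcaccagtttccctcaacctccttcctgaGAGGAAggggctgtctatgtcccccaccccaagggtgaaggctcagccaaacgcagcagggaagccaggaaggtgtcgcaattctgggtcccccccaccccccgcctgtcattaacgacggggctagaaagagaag
Epor: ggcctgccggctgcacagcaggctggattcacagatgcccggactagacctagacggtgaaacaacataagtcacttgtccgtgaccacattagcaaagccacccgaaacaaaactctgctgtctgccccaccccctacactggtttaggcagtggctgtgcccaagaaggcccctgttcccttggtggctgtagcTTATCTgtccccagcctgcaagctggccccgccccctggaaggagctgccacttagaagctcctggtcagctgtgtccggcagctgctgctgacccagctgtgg
Entries for 7 of the 9 genes were searched. GAGGAA was found in 4 of them (Csf2ra, Csf2rb2, Csf3r and Kit), against 28.3% of all 32851 promoter entries, and AGATAA in 1 (Epor), against 11.2%. In Csf2ra the motif stands in tandem at -14 and -8, and in Epor the GATA letters stand at -54, counted from the gene start to the first base of the match in the gene's direction. These matches describe letters only and no factor's binding was measured.

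The libraries differed in depth and in blood cell content before any receptor was compared. Totals were 20563116 to 22131465 counts in Hes1 KO, 5812598 in WT replicate 2 and 12109170 in WT replicate 3, and 66167 in WT replicate 1, where 1 count makes 15.1 CPM (counts scaled to a common library total). The results are therefore given with all 6 libraries and in a fit of 5 libraries without WT replicate 1. Below, sets of 3 values follow replicates 1, 2 and 3 of a group. Hes1 itself had counts of 185, 220 and 255 for Hes1 KO against 0, 310 and 345 for WT. It fell by 2.55 on the log2 scale (SE 0.31) without WT replicate 1 (edgeR, Benjamini-Hochberg adjusted p = 0.0294), and transcript remained in every Hes1 KO library. The 11 stromal markers together reached 31.5 to 41.7 CPM for Hes1 KO against 4.38 to 42.1 for WT. Of the defining markers Prrx1 had 0 to 2, Pdgfra 0 to 6 and Lepr 1 to 33 counts in a library, and Cxcl12, which encodes a chemokine, had 153, 66 and 287 counts for Hes1 KO against 1, 73 and 9 for WT. Pdgfrb (138 to 175 counts for Hes1 KO) and Nt5e (125 to 604) were the most abundant of the others there. Markers of neutrophils and macrophages were far higher, as given below. In WT replicate 3, haemoglobin genes took 39.9% of counts, against at most 0.263% elsewhere, and the noncoding RNA Malat1 was at 13895 CPM in WT replicate 2 against at most 3340 CPM elsewhere. Both WT libraries of the 5-library fit held transcripts of the Y-linked gene Ddx3y (205 and 42.2 CPM), while Hes1 KO replicates 1 and 3 had 1.27 and 0.146 CPM and replicate 2 had 61.9 CPM. The part of these differences in the results was not tested. In whole-sample RNA, fewer cells of a type and less RNA per cell cannot be told apart. By Xist and Ddx3y the replicates of a group were not all technical repeats of 1 animal. Whether each was a separate animal is not stated, so the p-values reflect only how these libraries vary, which may be partly technical.

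With WT replicate 1 left out, 4 of the 9 receptor genes passed the threshold, all higher in Hes1 KO: Csf2ra, Csf2rb, Il3ra and Flt3. The first 3 encode chains of the GM-CSF and interleukin-3 receptors, of which the additional beta chain Csf2rb2 did not pass. A positive log2 fold change was found for 7 of the 9, against 50.7% of genes. In that fit 15.5% of 16190 genes passed, 7.44% higher and 8.09% lower. Of the 9, 7 had an unadjusted p under 0.05, against 39.8% of genes. Their median log2 fold change was 1.14, against 0.02 over all genes tested. With all 6 libraries 0 of the 9 passed, as did 0 of 14756 genes (0%, edgeR with Benjamini-Hochberg adjustment). There, 2 of the 9 had an unadjusted p under 0.05 (Csf2ra and Epor), against 14.9% of all genes. DESeq2 called 1 (Epor) among 813 genes in all, and limma-voom called 0 of the 9. The 4 calls also needed every Hes1 KO library: without any 1 of these, 0 of all genes passed and the 4 had adjusted p of 0.119 to 0.176 (edgeR, Benjamini-Hochberg). Their log2 fold changes then stayed between 0.74 and 1.95. Scaling by library total alone, or adding the replicate number as a block, also left 0 calls, with log2 fold changes of 0.78 to 2.03 for the 4.

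**Figure D1:**
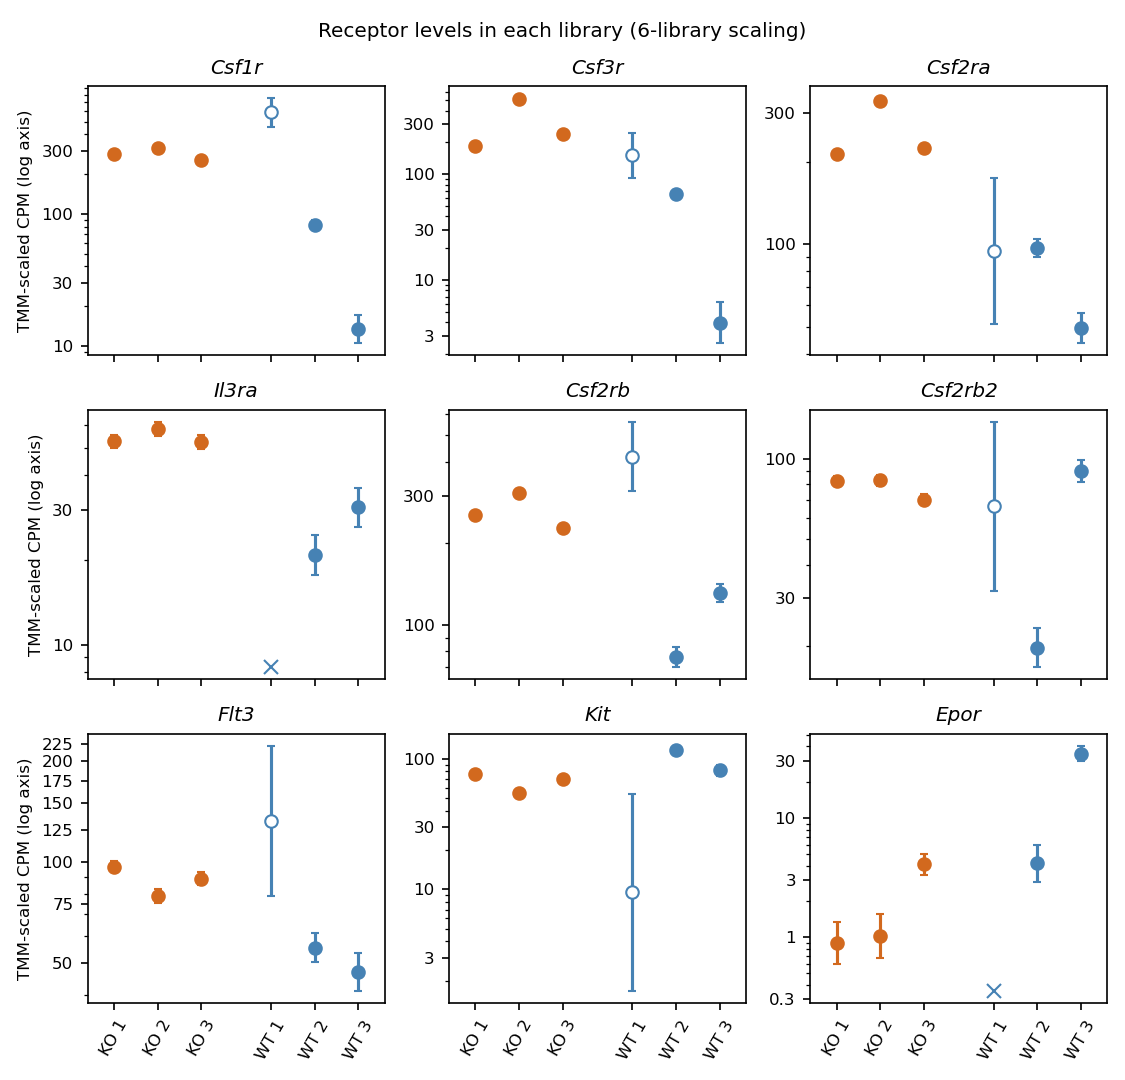
Levels of the 9 receptor genes in each library, as TMM-scaled CPM on log axes that differ between panels. Bars are Wilson 95% intervals of the counts, open circles are WT replicate 1 and crosses at the bottom mark 0 counts. Csf2ra, Csf3r and Il3ra of every Hes1 KO library lie above all WT libraries.

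On the scale used by the fits (CPM with TMM factors), 3 of the 9 genes had every Hes1 KO library above every WT library with all 6 libraries (Csf2ra, Csf3r and Il3ra), against 22.5% of genes tested, and 0 lay wholly below (5.15% of genes). Without WT replicate 1 these were 6 of 9, with Csf1r, Csf2rb and Flt3 added, against 31.2%. Kit alone had every Hes1 KO library below the remaining WT libraries, against 24.5% of genes. By library totals alone, 7 of 9 lay above without WT replicate 1, with Csf2rb2 added (35.1% of genes), and Epor lay below (7.54%), while Kit overlapped. A large share of all genes thus separated in the same way.

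Csf2ra, the GM-CSF binding chain, had CPM of 249.7, 324 and 256 for Hes1 KO against 151, 117 and 19.7 for WT. The 10 counts behind the WT replicate 1 value allow 82.1 to 278 CPM (Wilson 95%, counting error only). The groups did not overlap in these values, although that interval reaches into the Hes1 KO range. Csf2ra rose by 1.87 on the log2 scale (SE 0.39) in the 5-library fit (edgeR, Benjamini-Hochberg adjusted p = 0.0391). With all 6 libraries its log2 fold change was 1.68 (SE 0.43, adjusted p = 0.31).

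Il3ra, the interleukin-3 binding chain, had CPM of 61.8, 56.6 and 59.6 for Hes1 KO. WT replicates 2 and 3 were at 24.9 and 12.1 CPM, with 0 counts in WT replicate 1, where 0 counts allow up to 45.3 CPM (3 counts). The 3 Hes1 KO libraries were close together and above both deeper WT libraries. Il3ra rose by 1.14 (log2, SE 0.24) in the 5-library fit (edgeR, Benjamini-Hochberg adjusted p = 0.0399), and its value with all libraries was 1.49 (SE 0.90, adjusted p = 0.457). Markers of mast cells and basophils, cells that respond to interleukin-3, summed to 1415 to 2256 CPM for Hes1 KO against 1224, 126 and 280 for WT. Of those 8 markers Prss34 and Mcpt8, proteases of basophils, were the most abundant in the Hes1 KO libraries, and the mast cell proteases Tpsb2 and Cma1 had at most 8 counts in any library. The part of these cells in the rise of Il3ra was not tested.

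Csf2rb had CPM of 297, 299 and 259 for Hes1 KO against 665, 91.5 and 52.0 for WT. WT replicate 1 (44 counts) was the highest library of all, and the other WT libraries were the lowest. Csf2rb rose by 1.40 (log2, SE 0.33) without WT replicate 1 (edgeR, Benjamini-Hochberg adjusted p = 0.0456), and had 0.36 (SE 0.63) with it. Its call was lost with DESeq2's size factors (adjusted p = 0.0516, edgeR) and with the older dispersion option (0.057). Csf2rb2 had CPM of 96.6, 80.6 and 80.0 for Hes1 KO against 106, 23.6 and 35.6 for WT. By library totals the deeper WT libraries lay below Hes1 KO, but with TMM factors WT replicate 3 (80.1 CPM) lay above all Hes1 KO libraries (64.7 to 76.6 CPM). Its log2 fold change was 0.58 (SE 0.59, adjusted p = 0.496, edgeR) in the 5-library fit. It was 2.10 without WT replicate 3 as well and -0.14 without WT replicate 2 as well, each with a lone WT library left.

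Csf2rb and Csf2rb2 are neighbouring genes of similar sequence, so their counts are uncertain where reads match both. Over 4647 aligned bases their longest coding transcripts (GENCODE M21, GRCm38) were 91.5% identical, and 18.9% of 50-base windows of Csf2rb occurred unchanged in Csf2rb2, as did 7.16% of 100-base windows. Csf2rb2 took 24.5%, 21.2% and 23.6% of the pair's counts for Hes1 KO. It took 20.5% in WT replicate 2 (Wilson 95% interval 17.6% to 23.7%) and 40.6% in WT replicate 3 (37.7% to 43.6%). In WT replicate 1 the share was 13.7% of 51 counts (6.81% to 25.7%). This share needs no scaling between libraries, and the interval of WT replicate 3 lay above all others.

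The lineage-restricted receptors Csf3r and Csf1r had the largest positive fold changes of the 9 without WT replicate 1 and did not pass. Csf3r, which drives neutrophil production, had CPM of 217, 500.2 and 273 for Hes1 KO against 242, 78.3 and 1.57 for WT. The groups overlapped by library totals, and WT replicate 3 was far below every other library. The log2 fold change was 3.24 (SE 1.18) without and 2.16 (SE 1.07) with WT replicate 1 (edgeR, Benjamini-Hochberg adjusted p = 0.105 and 0.378). Csf1r had CPM of 335, 308 and 290 for Hes1 KO, within a narrow range. In WT it was at 937 CPM in replicate 1 (62 counts, 731 to 1201 CPM, Wilson 95%), 99.1 CPM in replicate 2 and 5.29 CPM in replicate 3. The highest and lowest libraries were thus both WT, and the log2 fold change moved from 0.36 (SE 1.08) with all libraries to 2.64 (SE 0.75) without WT replicate 1 (edgeR, Benjamini-Hochberg adjusted p = 0.894 and 0.065). Leaving out WT replicate 2 as well gave 6.36 for Csf3r and 4.48 for Csf1r, and leaving out WT replicate 3 as well gave 2.38 and 1.90. A lone WT library remained in each of these fits, so only the fold changes are given. DESeq2 called both genes higher in the 5-library comparison (adjusted p = 0.0121 for Csf3r and 0.00438 for Csf1r), where it called 4997 of 16190 genes in all.

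**Figure D2:**
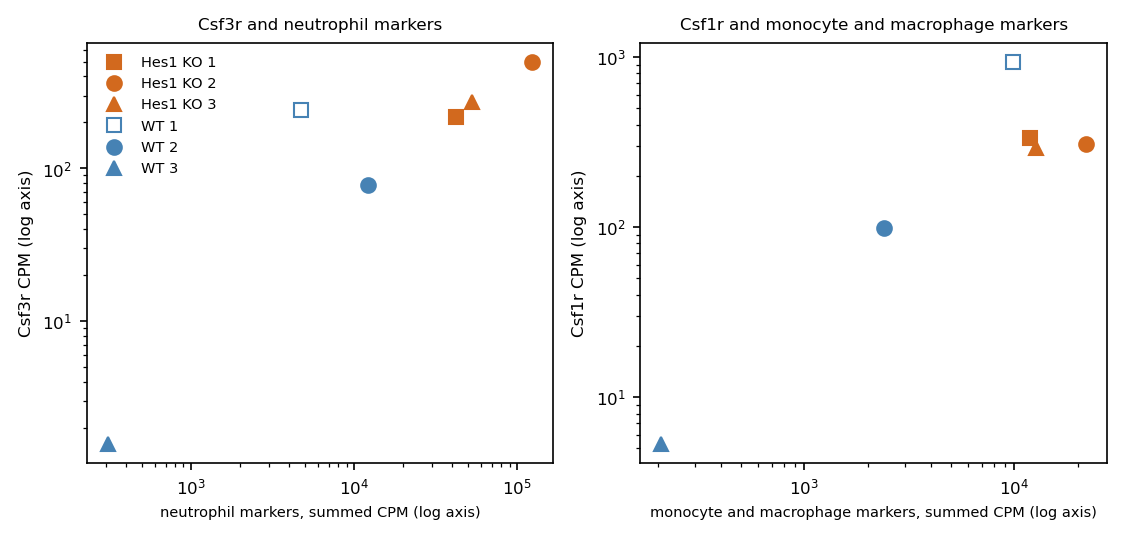
Csf3r against the summed level of 9 neutrophil markers and Csf1r against that of 12 monocyte and macrophage markers, in CPM on log axes, 1 point per library (orange Hes1 KO, blue WT, open square WT replicate 1). In the 5 deeper libraries Csf3r is higher where its markers are higher, while the Csf1r levels of the 3 Hes1 KO libraries are alike.

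Markers of the cells that carry these receptors differed between the libraries too, and their part in the fold changes was not tested. The 9 neutrophil markers summed to 42140 to 123635 CPM for Hes1 KO against 4761, 12159 and 310 for WT. Per 1000 neutrophil marker counts, Csf3r had 5.14, 4.05 and 5.18 counts for Hes1 KO, and 6.44 and 5.06 for WT replicates 2 and 3. The ratio thus ran from 4.05 to 6.44 across these 5 libraries, where that of WT replicate 3 rests on 19 Csf3r counts. The 4 markers of neutrophil precursors had another order, with CPM of 5611, 1857 and 4848 for Hes1 KO against 6861, 2509 and 38.4 for WT. In WT replicate 1 the Csf3r ratio to the 9 markers was 50.8 (16 Csf3r counts per 315 marker counts), where S100a8, S100a9 and Ly6g were at 0 counts. The 12 monocyte and macrophage markers summed to 11920 to 21855 CPM for Hes1 KO against 9839, 2383 and 208 for WT. Per 1000 of these marker counts, Csf1r had 28.1, 14.1 and 22.9 counts for Hes1 KO against 95.2, 41.6 and 25.4 for WT. These ratios depend on Lyz2, whose share of the marker counts differed between libraries. Lyz2 gave 388034 of 462665 counts in Hes1 KO replicate 2, 622 of 2524 in WT replicate 3 and 33 of 651 in WT replicate 1. C1qa, C1qb, C1qc and Mertk of resident macrophages had at most 14 counts in any library.

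Flt3, a receptor of progenitors, had CPM of 114, 76.9 and 102 for Hes1 KO against 212, 66.4 and 18.6 for WT. WT replicate 1 (14 counts) was above every other library, and the deeper WT libraries were below every Hes1 KO library. Flt3 rose by 0.85 (log2, SE 0.20) in the 5-library fit (edgeR, Benjamini-Hochberg adjusted p = 0.0479), close to the threshold. The call was lost with no filter on low counts, DESeq2's size factors, limma-voom or the older dispersion option (adjusted p = 0.053 to 0.0651), and the value with all 6 libraries was 0.22 (SE 0.47). Markers of dendritic cells, which keep Flt3, summed to 217 to 329 CPM for Hes1 KO against 287, 45.9 and 75.7 for WT, and their part in the rise was not tested.

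Kit had CPM of 89.9, 52.6 and 79.6 for Hes1 KO against 15.1 (1 count), 140.04 and 32.3 for WT. By library totals the groups overlapped. With TMM factors the deeper WT libraries, at 103 and 72.7 CPM, were above Hes1 KO, at 49.98 to 71.2 CPM. Kit had a log2 fold change of -0.51 (SE 0.25) without and -0.11 (SE 0.71) with WT replicate 1 (edgeR, Benjamini-Hochberg adjusted p = 0.193 and 0.955). Markers of stem and progenitor cells summed to 249, 214.5 and 200.02 CPM for Hes1 KO against 302, 122 and 70.0 for WT, where the first is 20 counts of Gata2. Gata2 also gave 749 of the 848 marker counts in WT replicate 3 and 2973 of 4542 in Hes1 KO replicate 2. In WT replicate 2 it gave 174 of 710, so the sums weigh the markers differently between libraries. The sum of the B lineage markers, of cells that arise from progenitors with Flt3, was highest in WT replicates 2 and 3, with 882 to 1538 CPM for Hes1 KO against 227, 5485 and 2798 for WT. Ebf1 alone gave 18195 of the 31884 marker counts in WT replicate 2, and Ms4a1 gave 57.

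The ratio of Flt3 to Kit within a library needs no scaling. It was 1.26, 1.46 and 1.28 for Hes1 KO against 14.0 (15 counts in all), 0.474 and 0.575 for WT. In the 5 deeper libraries the groups did not overlap, with mean log2 ratios of 0.41 in Hes1 KO and -0.94 in WT. A two-sided exact permutation test gave p = 0.2 there, the smallest that 3 against 2 libraries allow, and p = 1.0 with all 6 libraries, where the smallest is 0.1. This pair was chosen after its counts were seen.

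**Figure D3:**
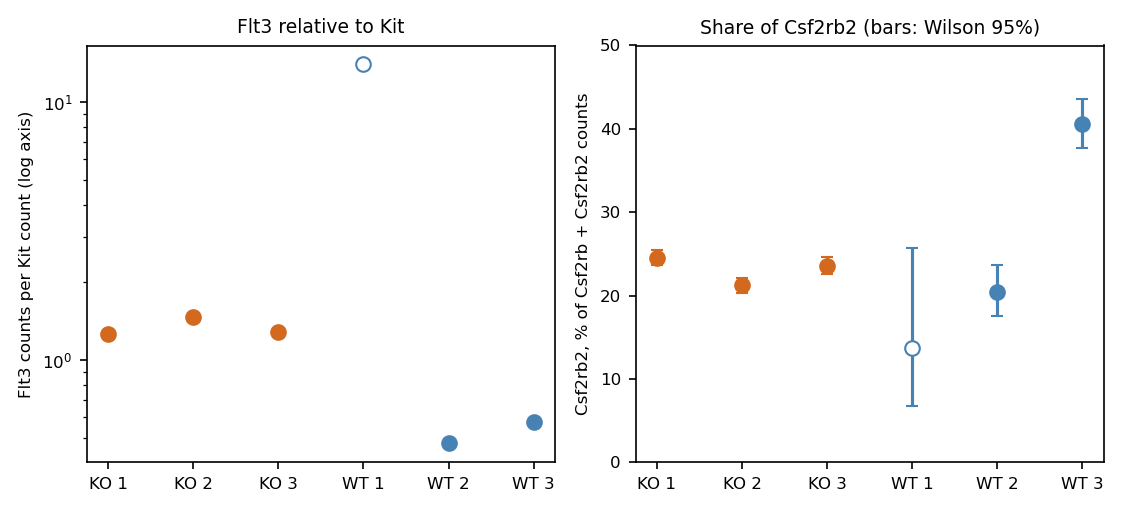
Left, Flt3 counts per Kit count in each library on a log axis, and right, the percentage of Csf2rb plus Csf2rb2 counts on Csf2rb2 with Wilson 95% intervals (orange Hes1 KO, blue WT, open circles WT replicate 1). Flt3 exceeds Kit in the Hes1 KO libraries and Kit exceeds Flt3 in WT replicates 2 and 3, and the Csf2rb2 share is highest in WT replicate 3.

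Epor, which keeps red cell precursors alive, was the least abundant receptor in the group means and had the largest negative fold change. In WT replicate 3, however, its CPM by library total was above that of Csf1r, Csf3r and Il3ra. Its counts were 23, 21 and 96 for Hes1 KO (1.04, 0.992 and 4.67 CPM) against 0, 29 and 167 for WT. The 0 counts of WT replicate 1 say little, since 3 counts there would make 45.3 CPM. WT replicates 2 and 3 were at 4.99 and 13.8 CPM, above every Hes1 KO library by library totals, but with TMM factors Hes1 KO replicate 3 (3.77 CPM) lay above WT replicate 2 (3.67 CPM). The log2 fold change was -3.22 (SE 1.04) without and -2.90 (SE 1.25) with WT replicate 1 (edgeR, Benjamini-Hochberg adjusted p = 0.0818 and 0.334). It was -0.96 without WT replicates 1 and 3 and -4.06 without WT replicates 1 and 2. DESeq2 called Epor lower in the 5-library comparison (adjusted p = 0.00941), among 4997 of 16190 genes in all. The 9 erythroid markers reached 424478 CPM in WT replicate 3 against 3152 in Hes1 KO replicate 3, the libraries with the most Epor counts, and at most 159.8 CPM in the others. Per 1000 erythroid marker counts, Epor had 0.0325 counts in WT replicate 3 and 1.48 in Hes1 KO replicate 3. It had 8.26 to 31.2 in Hes1 KO replicates 1 and 2 and WT replicate 2. These ratios follow the haemoglobin genes, as Hbb-bs alone gave 3189021 of 5140076 marker counts in WT replicate 3. The markers differed among themselves. Hbb-bs had 1429, 463 and 35332 counts for Hes1 KO against 0, 20 and 3189021 for WT, and Klf1 had 64, 45 and 223 against 0, 34 and 110. The part of erythroid cells in the Epor values was not tested. All 9 erythroid markers were at 0 counts in WT replicate 1.

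**Figure D4:**
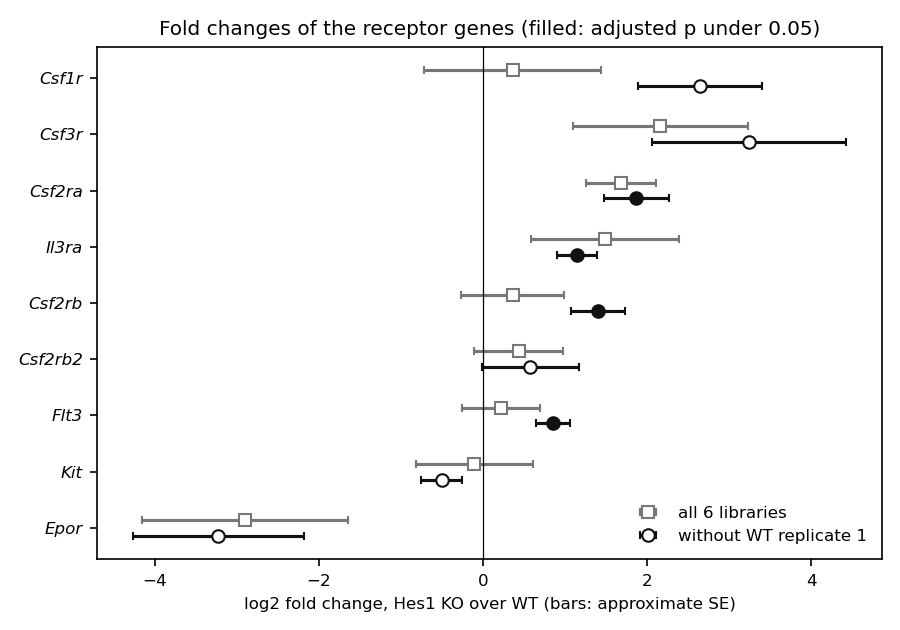
Log2 fold changes of Hes1 KO over WT for the 9 receptor genes with approximate SE, for all 6 libraries (grey squares) and without WT replicate 1 (black circles). Filled symbols passed, which holds for Csf2ra, Il3ra, Csf2rb and Flt3 without WT replicate 1 and for no gene with all 6.

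Levels were compared between receptors per kilobase of coding sequence (GENCODE M21), as CPM by library total. In Hes1 KO the order was Csf2ra at 237 ± 35.3 (SD, n = 3), Csf3r at 131 ± 59.8, Csf2rb at 106 ± 8.45, Csf1r at 106 ± 7.72 and Il3ra at 49.9 ± 2.17 CPM per kilobase. Csf2rb2 at 32.6 ± 3.57, Flt3 at 32.5 ± 6.23, Kit at 25.2 ± 6.55 and Epor at 1.47 ± 1.39 followed on that scale. The means of Csf3r, Csf2rb and Csf1r overlapped in their spread between libraries, as did those of Csf2rb2, Flt3 and Kit. Within every Hes1 KO library, however, Kit was below both Csf2rb2 and Flt3, while Csf2rb2 and Flt3 changed places. The order of Csf3r, Csf2rb and Csf1r also changed between libraries. In WT replicates 2 and 3 the levels ran from 100.2 and 16.9 for Csf2ra to 3.28 and 9.07 for Epor, and within the spread of those libraries no neighbours in the order could be separated. Dividing by all exon bases instead kept Csf2ra first and Epor last in the means of both groups. The lead of Csf2ra over Csf3r in Hes1 KO was then small (96.2 against 91.4 CPM per kilobase). In Hes1 KO replicate 2 Csf3r was first on that scale (139 against 113).

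The members were also compared by pattern over the 5 deeper libraries, as the root mean square difference of centred log2 CPM. Among themselves, Csf2rb and Il3ra were the closest pair (0.18) and Csf3r and Epor the farthest (4.18). Among 12096 other genes, those most like Csf3r were Trem3 (0.08), a receptor of myeloid cells, and Lcn2 (0.17), which encodes a neutrophil granule protein. Csf1r was most like Hnmt (0.12) and Ralb (0.15), and Csf2ra most like Nlrx1 (0.06) and Fes (0.06), the latter a tyrosine kinase of myeloid cells. For Csf2rb they were Sf3b6 (0.04) and Srp9 (0.05), for Il3ra Txndc12 (0.04) and Sdhc (0.04), and for Csf2rb2 Ift20 (0.06) and TrnE (0.10). For Flt3 they were Erp44 (0.04) and D6Wsu163e (0.04), and for Kit Usp48 (0.03) and Ankhd1 (0.04). Epor was least matched, with Redrum, a noncoding RNA, at 0.13 and Plpp1 at 0.37. These likenesses rest on 5 libraries and carry no test.

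Of 10 listed ligand genes 7 were analysed here and 3 passed the filter on low counts without WT replicate 1 (Csf1, Flt3l and Kitl). In that fit edgeR called 0 of the 3, against 15.5% of genes, and DESeq2 and limma-voom called 0. An unadjusted p under 0.05 (edgeR) was found for 1, against 39.8% of genes. Kitl, which encodes stem cell factor, had counts of 27, 6 and 22 for Hes1 KO against 0, 1 and 1 for WT (log2 fold change 2.15, SE 0.75, edgeR Benjamini-Hochberg adjusted p = 0.0833). It passed the filter only in the 5-library fit and only through its Hes1 KO counts, so the filter favoured a positive fold change. Flt3l, the ligand of Flt3, had a log2 fold change of 0.50 (SE 0.53, adjusted p = 0.511, edgeR). Csf2 and Csf3 had at most 3 counts in any library.

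Downstream genes passed in both directions in the 5-library fit, where 7.44% of all genes were higher and 8.09% lower. Of 19 Jak-Stat genes 2 rose and 1 fell, with a median log2 fold change of -0.10. Ptpn6, a phosphatase that damps cytokine receptors, rose by 1.68 (SE 0.31) and Tyk2, a Jak kinase, by 1.02 (SE 0.20), while the survival kinase Pim2 fell by 1.70 (SE 0.37). Of 25 kinases, adaptors and ubiquitin ligases next to the receptors 3 rose and 3 fell (median 0.09). Fgr, a Src family kinase of myeloid cells, rose by 2.71 (SE 0.47), the adaptor Sla rose by 1.40 (SE 0.28), and the docking protein gene Gab1 fell by 2.62 (SE 0.35). Of 16 tested receptors for other cytokines 1 rose and 2 fell (median 0.41): Ifngr1, for interferon gamma, rose by 1.22 (SE 0.22), Il7r, for the lymphoid cytokine interleukin-7, fell by 1.61 (SE 0.34) and Tgfbr2 fell by 1.10 (SE 0.27). The adjusted p of the named genes that passed were 0.0294 to 0.0486 (edgeR, Benjamini-Hochberg). With all 6 libraries 0 of these lists' genes passed (edgeR), with an unadjusted p under 0.05 for 4 Jak-Stat, 5 adaptor and 0 receptor genes, against 14.9% of all genes. DESeq2 then called 1, 2 and 0 of them and limma-voom 0 of each.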

How the data were processed

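Poly(A)-selected RNA of 6 mouse libraries was sequenced by the submitters with a strand-keeping kit. The authors deposited whole-number read counts per gene symbol, and the deposited table's own name gives featureCounts as the counter. The build GRCm39, edgeR and limma are named in the submitters' processing notes. Aligner, annotation and strand setting: not given in the sources used here. Therefore reads of Csf1r, Flt3 and Il3ra cannot be told apart from those of genes annotated opposite them in GENCODE M21 (Hmgxb3, Gm26597 and Gm48860).

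Counts were filtered with filterByExpr, scaled by TMM and tested with edgeR 4.0.16 (R 4.3.3) by the quasi-likelihood test (legacy option off), with Benjamini-Hochberg adjustment over all genes tested and a threshold of 0.05. Approximate SE were derived from the fold change and the F statistic. In the 5-library fit the TMM factors were 0.445 for WT replicate 3 and 1.05 to 1.37 for the others. CPM are counts per library total unless TMM factors are named. Intervals and the floor of 3 counts cover counting error only.

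Alternatives were DESeq2 1.42.0, limma-voom (limma 3.58.1), other scalings and filters, a replicate block and leaving out each library. Leaving out haemoglobin genes was added after the data were seen. On simulated data made from these libraries, the 6-library test (14331 genes) called 8 of 100 genes made to differ 4-fold and 72 of 100 made to differ 16-fold, with 6 false calls among 86. The 5-library test (15997 genes) called 24 and 86 of 100, with 11 false among 121. In the simulation only these genes were made to differ, fewer than passed in the 5-library fit. Apart from them the simulated libraries differed in size but not in composition, so the rates need not hold for the real libraries.

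The receptors, gene lists and tests were chosen with earlier results of these data known. Beyond all 9 receptors and Hes1, genes were named by rule: up to 4 passing genes per pathway list, or the 2 smallest p, and the 2 genes most alike each receptor. A gene that this rule names is not reported here. The coding lengths came from GENCODE M21 in place of RefSeq proteins, which had been planned.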

Additional observations from a re-analysis of the deposited data

How the results depend on the processing

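With all 6 libraries the count of genes that passed was 0 under every alternative except DESeq2, with 813 genes and 1 of the receptors, and leaving out 1 library, which gave 0 to 2513 genes and 0 to 4 receptors (the highest without WT replicate 1). Without WT replicate 1, where 2513 of 16190 genes and 4 receptors passed, DESeq2 gave 4997 genes and 7 receptors (6 higher and 1, Epor, lower). There limma-voom gave 1440 genes and 3 receptors (Csf2ra, Csf2rb and Il3ra). The receptors that passed were 2 (Csf2ra and Il3ra) with DESeq2's size factors and 2 (the same genes) with the older dispersion option. Scaling by library total alone gave 0 genes and 0 receptors and moved the median over all genes to a log2 fold change of 0.44 (0.26 with 6 libraries). Leaving out a further library gave 0 to 6210 genes and 0 to 7 receptors, with 0 when a Hes1 KO library was left out and 7 receptors when WT replicate 2 or WT replicate 3 was. The lone remaining WT library was then assumed to vary like Hes1 KO. Leaving out haemoglobin genes gave 2476 genes and 4 receptors.

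Directions were kept without WT replicate 1 except for Csf2rb2, at -0.14 to 2.10 when a further library was left out. With all 6 libraries Kit turned positive with no filter (0.089), library totals (0.16) and the replicate block (0.24), and Csf1r turned negative with library totals (-0.12). Leaving out 1 of the 6 libraries gave log2 fold changes of -0.15 to 2.64 for Csf1r, -0.11 to 1.40 for Csf2rb, -0.12 to 1.14 for Csf2rb2, -0.055 to 0.85 for Flt3 and -0.51 to 0.28 for Kit. The cause was not tested.

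Same-numbered libraries did not deviate together in every pair (correlations of deviations over 14756 genes of 0.15, 0.01 and 0.24), and Hes1 KO replicate 2 was not closest to its own number, so the numbers were not taken as pairs. With the replicate block 0 genes and 0 receptors passed with 6 and with 5 libraries. Depth limits WT replicate 1 most: its receptor counts were 0 to 62.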
